A study of Drosophila melanogaster with 2 samples.

Results

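The JAK-STAT pathway of Drosophila melanogaster was examined through 8 genes chosen by symbol, out of 13945 protein-coding genes on the 6 arms that carry peaks. They code for the ligands (upd1, upd2, upd3), the receptor (dome), the Janus kinase (hop), the transcription factor (Stat92E) and 2 inhibitors (Socs36E and Ptp61F). The measurement was chromatin immunoprecipitation with sequencing (ChIP-seq) of a fusion of the CG15269 protein with eGFP, recovered through the GFP tag from whole embryos of both sexes. There was 1 group, with biological replicates 2 and 3 of a single transgenic line that stably carries CG15269 with GFP at its C terminus. The source name puts the embryos at 6 to 18 h, while the age field holds a value that is no embryonic age, and the antibody field names CG15269 where the description names GFP. There was no second genotype or treatment, so the question is where the tagged protein was recovered at these genes. All places are peaks in whole embryos: a strong peak in few cells and a weak peak in many cells cannot be told apart.

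In this pathway, secreted Unpaired cytokines bind the receptor Domeless, which activates the kinase Hopscotch, and Hopscotch phosphorylates Stat92E, which then enters the nucleus and activates genes. Socs36E is both a target gene and a feedback inhibitor of the pathway, and Ptp61F codes for a tyrosine phosphatase that dampens it. In fly embryos the pathway is known for its part in segmentation and in forming the trachea, the hindgut and the posterior spiracles.

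The peaks come from 4 deposited lists. Each replicate has its own list, a joint list was called on the replicates combined, and the IDR list holds the 7029 joint peaks that met the authors' limit on irreproducible discovery. The other 3 lists hold 30000 peaks each. The signal of a peak is the authors' own value. Its scale is not stated, and signals are compared only inside 1 list. Ranks run from 1 for the strongest peak. The lowest signal of the IDR list was 154.4 and the median 288.1. Positions are on dm6, counted from 1, and distances from a transcription start site (TSS) are positive in the direction of transcription.

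IDR summits stood at the genes of the transcription factor and the inhibitors. A promoter summit is here one that lies at most 500 bp from any annotated TSS of a gene. Of the 8 genes, 3 had an IDR promoter summit: Stat92E, Socs36E and Ptp61F. The same 3 genes were the ones with an IDR summit in an intron. The genes of the 3 ligands, the receptor and the kinase had none in either place. An IDR promoter summit was present at 20.6% of all protein-coding genes. The same 3 genes had a promoter summit in the joint list, where 36.3% of all genes did. Among the 7029 strongest peaks of replicate 2 the 3 genes again had one (20.8% of all genes), and in replicate 3 only Stat92E and Ptp61F did (21.8% of all genes). The share of 3 in 8 was 37.5%, with an exact Clopper-Pearson 95% interval of 8.52 to 75.5% that covers counting error only. The 8 genes were chosen by symbol and not drawn at random, so this wide interval cannot compare them with all genes.

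In the genes and the 10 kb on either side lay 35 IDR summits, with a median signal of 265.5, a lowest of 155.1 and a highest of 1837.3. They ranked between 207 and 6983, and 17 of them were above the median of the IDR list. Ptp61F had 14, Socs36E 9, Stat92E 6, dome 3, hop 2 and upd3 1. The windows of upd1 and upd2 had none. Windows of this size take in neighbouring genes, and 66.8% of all protein-coding genes had an IDR summit in theirs, against 6 of the 8 here. Only 8 of the 35 summits had a TSS of the member itself as the nearest protein-coding TSS, and these 8 belonged to Stat92E, Socs36E and Ptp61F. By that stricter count 25.8% of all protein-coding genes had a summit.

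Stat92E (FBgn0016917, the transcription factor, 3R 20535323 to 20552311, minus strand) had the strongest IDR summit of any member that lay inside the gene itself. It lay in an intron, 932 bp downstream of the inner of 2 TSSs (peak 20549997 to 20550358, summit 20550175). Its signal was 1089.8 and its rank 555 in the IDR list. In replicate 2 the peak had a signal of 552.1 and ranked 507, and in replicate 3 it had 521.0 and ranked 654. The replicates thus placed it at like ranks, and their summits lay 8 and 18 bp from the IDR summit. Among the 1696 protein-coding genes with an intronic IDR summit, 85.0% had a lower strongest signal than Stat92E. For Socs36E the same share was 58.8% and for Ptp61F 53.8%, both nearer the middle. The genes next to Stat92E in that order were Evi5 (1092.7) and N, the Notch receptor gene (1085.1).

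A weaker IDR summit of Stat92E lay in the 5' UTR, 303 bp downstream of the inner TSS (peak 20550693 to 20550844, signal 299.6, rank 3359). Its signal was 144.3 in replicate 2, at rank 3643, and 155.9 in replicate 3, at rank 3476. It is the only one of the member summits at a TSS that was above the median of the IDR list. The outer TSS had no IDR summit within 500 bp. Elsewhere in the introns, the joint list held 5 more summits, all below the IDR list. The strongest of these lay 2001 bp from the inner TSS with signal 138.6 and rank 7872, at rank 6385 in replicate 2 and 13404 in replicate 3. Upstream of Stat92E, 4 IDR summits lay 2942, 4120, 5503 and 8172 bp from its outer TSS. Each of these was nearer to the TSS of another gene: DPCoAC, which codes for a mitochondrial carrier protein, at 844 and 1223 bp, CG5180 at 116 bp and CG15922 at 203 bp. Their signals were 155.1, 520.4, 344.4 and 218.1.

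Socs36E (FBgn0041184, the feedback inhibitor, 2L 18138675 to 18152417, minus strand) was lined with IDR summits of modest signal. There were 5 in its introns and 1 at its TSS, spread over most of a gene of 13743 bp. The summit at the TSS lay in the 5' UTR, 38 bp downstream (peak 18152174 to 18152583, signal 210.0, rank 5050). This was the place where the replicates differed most within the gene: the peak had a signal of 138.8 and ranked 3829 in replicate 2, and had 79.9 and ranked 7220 in replicate 3. In replicate 3 it thus fell outside the 7029 strongest peaks. Its summit shifted by 82 bp in replicate 3 and by 2 bp in replicate 2.

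The intronic summits of Socs36E lay 1071, 1663, 3381, 6958 and 10799 bp downstream of the TSS, with signals of 215.7, 265.5, 247.7, 526.7 and 351.4. In replicate 2 the signals in the same order were 99.1, 152.6, 125.1, 246.6 and 140.1. In replicate 3 they were 124.7, 138.4, 117.0, 286.0 and 197.1. The summit at 6958 bp was the highest in both replicates (ranks 1747 and 1623), and it also lies in an exon of a non-coding gene, lncRNA:CR44478, inside the intron. The innermost one, at 10799 bp, was nearer to the TSS of kel (3535 bp), the kelch gene of the egg chamber's ring canals, than to that of Socs36E. The strongest joint peak of the gene below the IDR list, in an intron 5981 bp from the TSS, had signal 86.6 and rank 12971.

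Socs36E held these 5 summits in 10.2 kb of intron, a density of 4.88 per 10 kb. Introns of all protein-coding genes together held 0.645 per 10 kb, Stat92E 0.849 and Ptp61F 0.789. Of the 963 genes with introns and a length of 10 to 20 kb, 2.39% had 5 or more intronic IDR summits, 23 genes with Socs36E among them. Density depends on the few summits of 1 gene and carries no test.

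**Figure D1:**
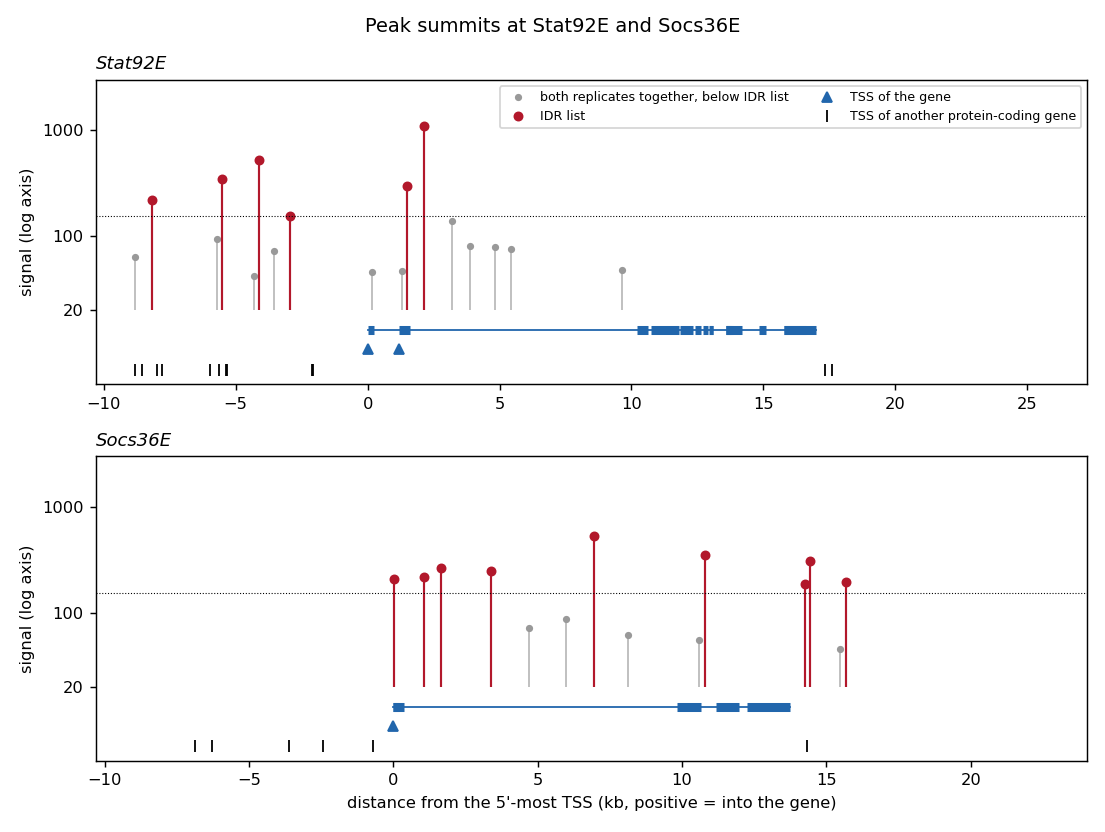
Summits in and around Stat92E and Socs36E, with the distance from the 5'-most TSS in kb on the x axis and the authors' signal on a log y axis. Red stems are summits of the IDR list, grey stems are summits of the joint list that fall below it, the dotted line is the lowest IDR signal (154.4), blue bars are exons with triangles at TSSs, and black ticks are TSSs of other protein-coding genes. The intronic summit of Stat92E reaches 1089.8, while those of Socs36E lie between 215.7 and 526.7.

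A pair of stretches of the Socs36E introns are shown, on the strand of the gene: the peak with the highest signal in the gene, and 100 bases on either side of the summit 3381 bp from the TSS, the intronic summit with consensus sequences for Stat92E. Capitals mark these consensus sequences, TTC and GAA separated by 3 or by 4 bases.
Socs36E intron, strongest peak, chr2L:18145353-18145603, minus strand: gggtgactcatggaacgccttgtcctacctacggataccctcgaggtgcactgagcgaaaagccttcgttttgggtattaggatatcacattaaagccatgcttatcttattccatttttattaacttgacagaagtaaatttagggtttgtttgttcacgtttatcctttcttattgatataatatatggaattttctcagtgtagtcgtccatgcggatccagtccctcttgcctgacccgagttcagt
Socs36E intron, summit at 3381 bp, chr2L:18148936-18149136, minus strand: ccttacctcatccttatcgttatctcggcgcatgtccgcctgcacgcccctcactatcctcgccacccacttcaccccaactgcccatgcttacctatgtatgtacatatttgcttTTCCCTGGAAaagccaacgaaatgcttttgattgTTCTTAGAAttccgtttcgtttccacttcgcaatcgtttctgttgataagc

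Beyond the 3' end of Socs36E, 3 IDR summits lay 501, 700 and 1930 bp outside the gene. All had kel as the gene of the nearest TSS, at 91, 108 and 1338 bp, with signals of 186.0, 306.1 and 195.6. The peaks at 91 and 108 bp overlap each other.

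Ptp61F (FBgn0267487, the phosphatase, 3L 1342493 to 1475257, minus strand) is by far the longest member, at 132765 bp, and 9 other protein-coding genes lie wholly inside it. Its 10 intronic IDR summits had signals between 166.9 and 470.7. Only 3 of the 10 lay in no other gene and more than 500 bp from the TSS of any other gene. The promoter summit of Ptp61F lay 257 bp upstream of an inner TSS (peak 1350651 to 1351060, summit 1350856, signal 242.1, rank 4327), which places it in an intron of the longer transcripts. It had a signal of 109.5 and ranked 5148 in replicate 2, and had 129.9 and ranked 4236 in replicate 3. The TSS of a neighbouring gene inside the Ptp61F span, CG9166, was 260 bp from the same summit, so the position does not separate the 2 promoters. Another intronic summit (248.8) lay in the 3' UTR of CG9166. The 5'-most TSS had no IDR promoter summit. The strongest joint peak below the IDR list lay in an intron, 1106 bp downstream of an inner TSS, with signal 147.1 and rank 7398.

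The strongest intronic summit of Ptp61F (signal 470.7, rank 1922, peak 1368187 to 1368486) lay outside any other gene, 2248 bp from the TSS of ru. The ru gene (roughoid) codes for an intramembrane protease of the rhomboid family that acts in EGF receptor signalling. A further 4 intronic summits lay inside the introns of ru itself, with signals of 166.9, 192.4, 417.1 and 246.5. The summit at 1463819 lay 8 bp from the TSS of rho, the rhomboid gene, with a signal of 238.5. A summit 4233 bp upstream of Ptp61F lay 549 bp from a TSS of stet, another rhomboid family gene, with a signal of 200.7. Thus 7 of the 14 summits in the window of Ptp61F had ru, rho or stet as the gene of the nearest TSS. Beyond the 3' end of Ptp61F, summits with signals of 755.0 and 325.9 had CG2211 as the gene of the nearest TSS, at 144 and 277 bp.

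**Figure D2:**
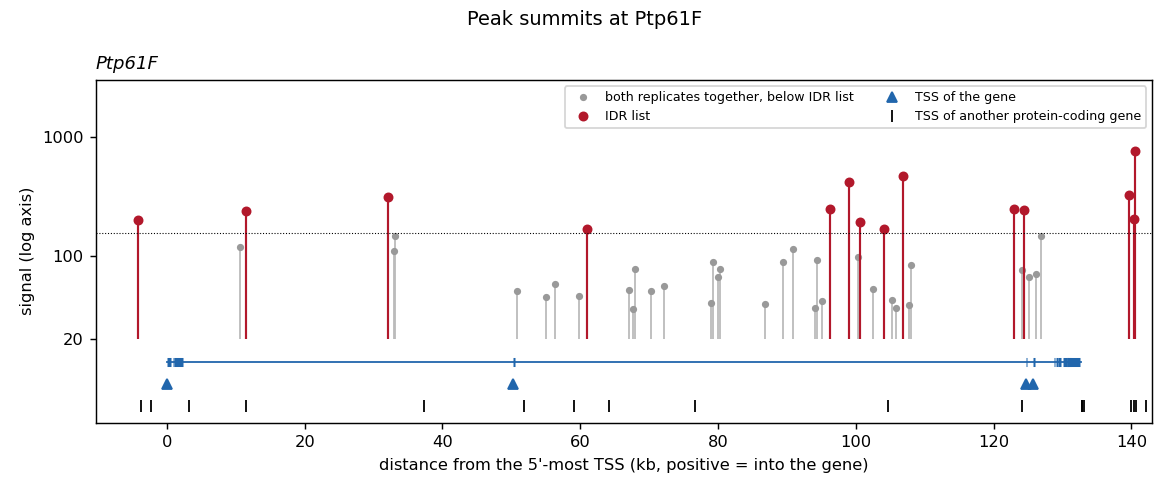
Summits in and around Ptp61F, with the distance from its 5'-most TSS in kb on the x axis and the authors' signal on a log y axis; symbols stand for the same things as in the plot of Stat92E and Socs36E. The 10 intronic IDR summits (red) lie between 166.9 and 470.7, and the highest stem, 755.0, is beyond the 3' end at CG2211.

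The summit at the inner promoter of Ptp61F is shown with 100 bases on either side, on the strand of the gene, because it places the gene among those with a promoter summit. Capitals mark a match to the DNA replication-related element (DRE), TATCGATA, with its centre 73 bp from the summit.
Ptp61F inner promoter, chr3L:1350756-1350956, minus strand: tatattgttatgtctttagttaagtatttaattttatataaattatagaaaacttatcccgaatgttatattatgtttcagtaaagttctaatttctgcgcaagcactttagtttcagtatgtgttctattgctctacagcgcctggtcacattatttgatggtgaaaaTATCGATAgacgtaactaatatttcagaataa

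At their promoters the 3 genes were below the middle of the genes with a summit. Over the 2876 protein-coding genes with an IDR promoter summit, the median of the strongest promoter signal was 407.7. Stat92E, with 299.6, was above 37.3% of these genes, Ptp61F with 242.1 above 25.9% and Socs36E with 210.0 above 18.3%. The neighbours in this order, the genes with the closest promoter signal on either side, were Sox100B (299.7) and Zw (299.3) for Stat92E. They were jagn (242.2) and Dif (242.0) for Ptp61F, and CG12355 (210.4) and CG31021 (209.4) for Socs36E.

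**Figure D3:**
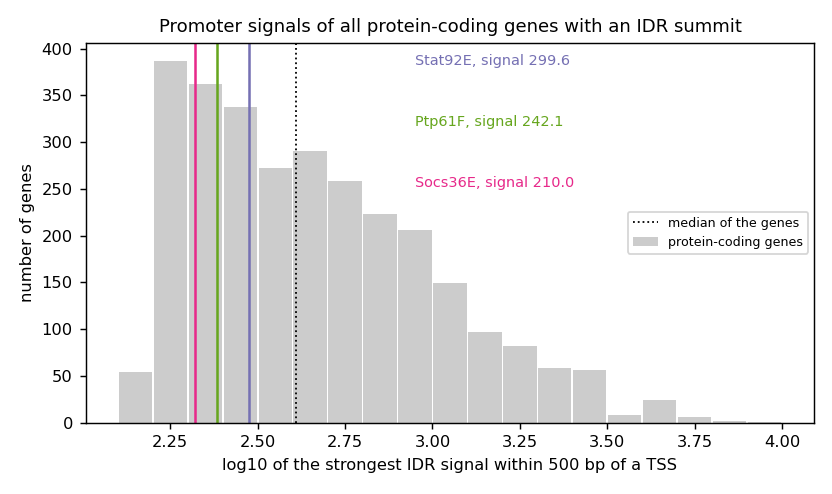
Number of protein-coding genes (y axis) by the log10 of their strongest IDR promoter signal (x axis), over the 2876 genes that have one. Coloured lines mark Socs36E, Ptp61F and Stat92E, which all lie to the left of the dotted median, 407.7.

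Having an intronic summit went with gene length across the genome. Of protein-coding genes with an intron, 14.5% had an intronic IDR summit, against 3 of the 8 members. The share was 3.29% of genes under 5 kb (the class of upd1 and upd2), 23.7% of genes of 5 to 10 kb (upd3, dome and hop), 42.9% of genes of 10 to 20 kb (Stat92E and Socs36E), 62.3% of genes of 20 to 50 kb (no member) and 71.3% of genes of 50 kb or more (Ptp61F). The 3 members with intronic summits are also the 3 longest, and the part of length in their count was not tested.

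The ligand genes lie near each other on X and had no IDR summit at a TSS or inside the gene. For upd1 (FBgn0004956, 18305354 to 18309291), the founding ligand gene of the family, needed for segmentation of the embryo, no summit of the joint list lay within 10 kb. Replicate 2 had none either, and replicate 3 had 1, of rank 25410 and signal 23.1. For upd2 (FBgn0030904, 18240654 to 18243284) the nearest IDR summit was 50945 bp from the TSS. The list called on both replicates together had 5 summits in its window, none inside the gene, and the strongest ranked 16585 with signal 67.3. Replicate 3 held 11 weak peaks in the window of upd2 and replicate 2 held 1, the highest of them at rank 11331 in replicate 3. All of these peaks were below the IDR list in rank.

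For upd3 (FBgn0053542, 18277233 to 18284596, plus strand), the ligand gene best known from immune and gut responses in larvae and adults, weak peaks stood at the gene in both replicates. The strongest below the IDR list lay 502 bp upstream of the TSS, just beyond the 500 bp window, with signal 125.9 and rank 8759. Replicate 3 ranked it 7421 with signal 77.6, and replicate 2 ranked it 15193 with signal 42.6. A summit in the intron 5346 bp downstream of the TSS was also seen in both replicates. It ranked 12856 in replicate 2 and 8825 in replicate 3. Of the member summits inside the limit of 500 bp, the farthest from its TSS was that of Stat92E, at 303 bp.

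The one IDR summit of the upd cluster lay in intergenic DNA between upd3 and upd1, 9633 bp beyond the 3' end of upd3 and 14030 bp from the nearest TSS, that of upd1 (peak 18294098 to 18294385, summit 18294229). Its signal was 681.9 and its rank 1165. Replicate 2 gave 346.6 and rank 1085, and replicate 3 gave 331.9 and rank 1309. It is shown whole, because it is the only peak of the IDR list in the windows of the ligand genes. Capitals mark CTACCTG, the reverse complement of the Zelda heptamer CAGGTAG, and near the 3' end a Stat92E consensus with spacing 3 that lies outside the 100 bases beside the summit. Zelda is a factor that opens chromatin in early embryos. In the 51 bp at this summit the A+T content was 78.4%.
upd3 to upd1, chrX:18294098-18294385, plus strand: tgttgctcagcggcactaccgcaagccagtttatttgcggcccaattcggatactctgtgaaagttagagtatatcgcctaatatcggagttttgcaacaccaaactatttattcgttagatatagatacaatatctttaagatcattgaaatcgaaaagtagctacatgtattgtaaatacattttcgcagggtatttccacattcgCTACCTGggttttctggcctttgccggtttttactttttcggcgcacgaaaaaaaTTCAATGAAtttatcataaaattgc

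The receptor gene dome (FBgn0043903, X 19676061 to 19683518) had no summit of any of the 4 lists in the gene or within 500 bp of its TSS. The 3 IDR summits in its window lay more than 7 kb from the gene and next to others. A summit with signal 1837.3, rank 207, lay in an intron of Zw, the glucose-6-phosphate dehydrogenase gene, 1120 bp from a TSS of Zw and 7459 bp from the end of dome. It had signals of 1025.4 and 810.4 in replicates 2 and 3. A weaker one (299.3) lay 117 bp from a TSS of Zw. A summit with signal 761.3 lay 86 bp from the TSS of Mer, the Merlin tumour suppressor gene, and 9896 bp upstream of dome. The strongest joint peak below the IDR list in this window had signal 60.3 and lay 417 bp from a TSS of Zw.

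The kinase gene hop (FBgn0004864, X 11360930 to 11368098) was likewise without a summit inside the gene or at its TSS in any of the 4 lists. Of the 2 IDR summits in its window, one with signal 1437.7, rank 330, lay in an intron of CG1737, 923 bp from a TSS of CG1737 and 9399 bp from hop. It had signals of 782.7 in replicate 2 and 665.6 in replicate 3. The other, with signal 158.0 and rank 6862, lay in an intron of dlg1, the Discs large polarity gene, 449 bp from one of its TSSs and 5376 bp from that of hop.

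**Figure D4:**
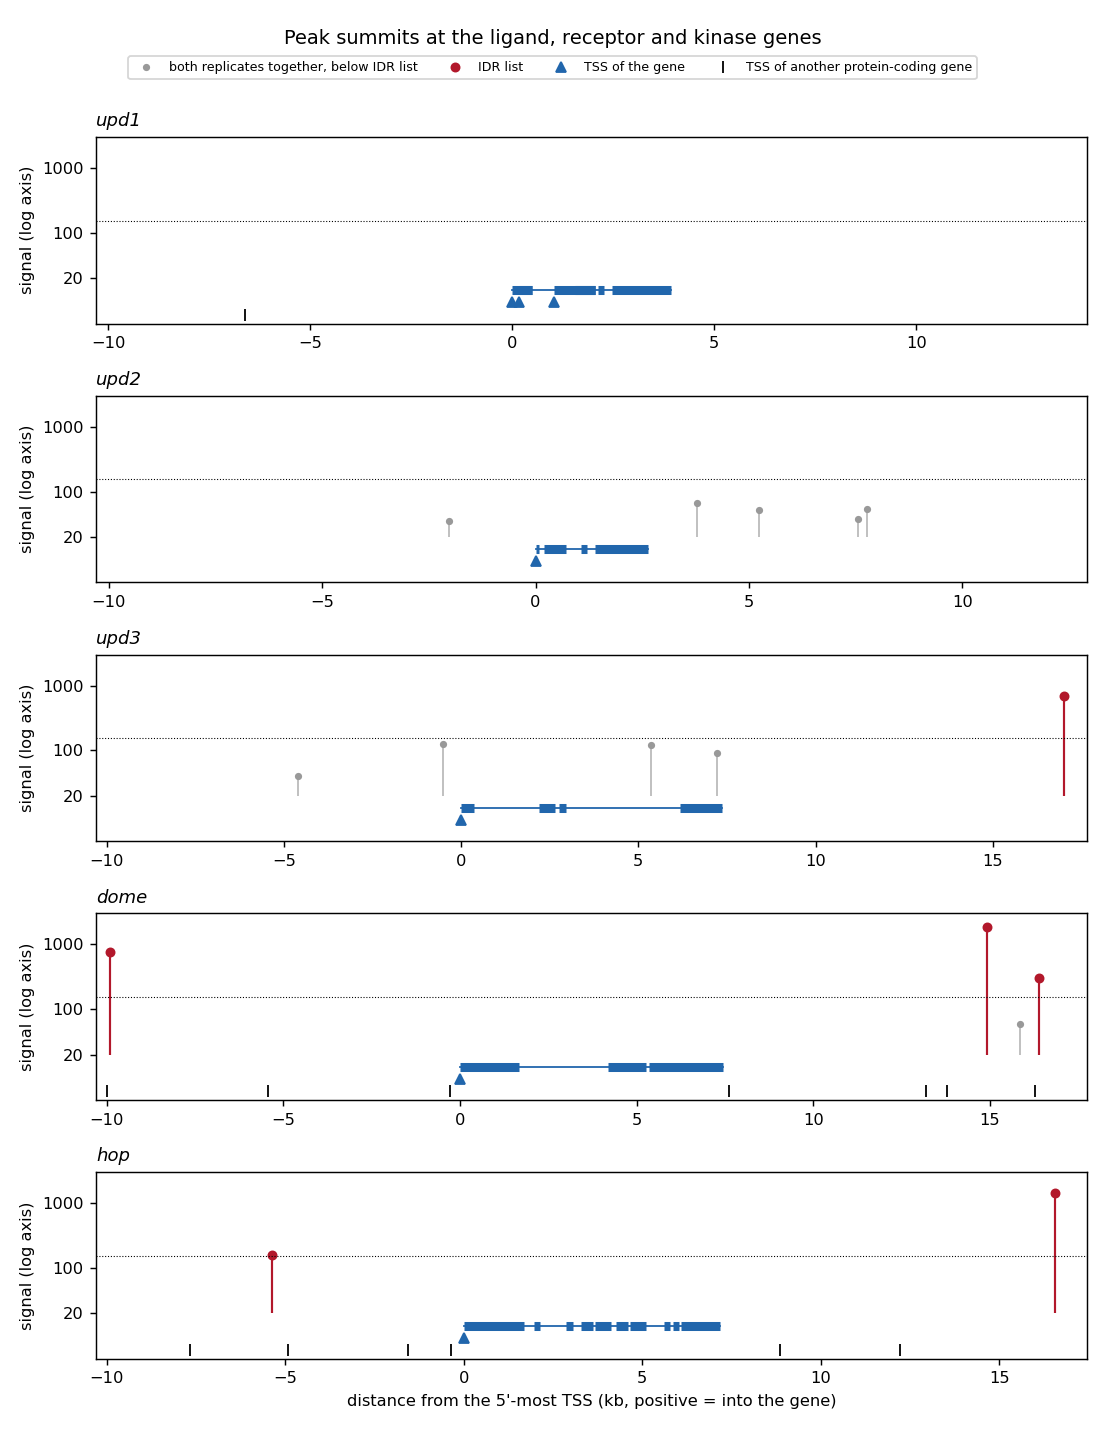
Summits in and around upd1, upd2, upd3, dome and hop, with the distance from the 5'-most TSS in kb on the x axis and the authors' signal on a log y axis; symbols stand for the same things as in the plot of Stat92E and Socs36E. No red stem stands within 5 kb of these genes, and those at dome and hop, up to 1837.3, stand beside other genes or inside them.

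Both replicates held a peak overlapping each of the 35 IDR summits, 100% with an exact interval of 90.0 to 100%, against 97.8% of all 7029. Part of this follows from how the IDR list was made, out of the replicate lists. When only the 7029 strongest peaks of each replicate counted, 28 of 35 had one in both (80.0%, interval 63.1 to 91.6%), against 77.8% of all IDR peaks. The replicate summits lay a median of 8 bp from the IDR summit in each replicate, and 32 of 35 were within 50 bp in each. The ranks of the 35 peaks in the 2 replicates had a Spearman correlation of 0.824, given as a description over peaks of shared libraries. In 25 of 35 the ranks were within 1.5 times of each other, and 21 ranked higher in replicate 2 and 14 in replicate 3.

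**Figure D5:**
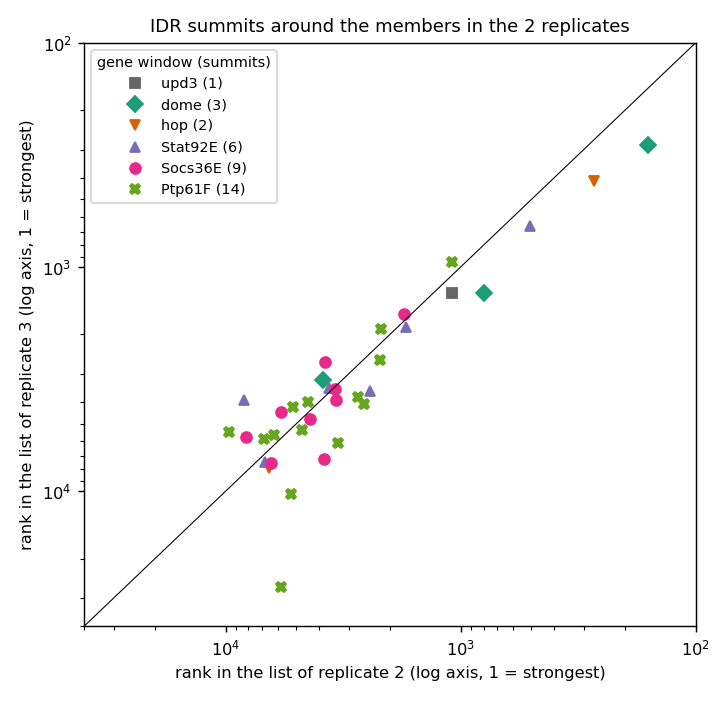
Rank of the 35 IDR peaks around 6 of the genes in the list of replicate 2 (x axis) and replicate 3 (y axis), both log axes with 1 as the strongest; the line marks equal ranks. The strongest peaks, at the top right, are those in Zw (dome window) and CG1737 (hop window).

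The A+T content in the 51 bp at the 35 summits was 63.2% ± 12.6 (SD over summits), against 56.7% ± 8.14 at 1000 bp on either side and 67.0% ± 11.2 over all IDR summits. It ranged from 33.3% at the rho TSS inside Ptp61F to 84.3% beside kel. In the window of Stat92E it was 67.3% ± 6.87 over 6 summits, and in that of Socs36E 59.9% ± 16.1 over 9. These windows take in summits beside other genes: 2 of the 6 lay inside Stat92E, with 68.6 and 56.9%, and 6 of the 9 inside Socs36E. In Socs36E the intronic summits at 1071 and 1663 bp both had 43.1%, while those at 6958 and 10799 bp had 70.6 and 78.4%. Of the 35 summits, 6 were below 50%, against 8.62% of all IDR summits. Among these 6, only the summits at 1071 and 1663 bp in Socs36E had a member's own TSS as the nearest. The others lay 117, 86, 108 and 8 bp from TSSs of Zw, Mer, kel and rho, so the count does not describe the members alone.

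Each summit with 100 bp on either side was searched on both strands for 6 consensus sequences. The Stat92E consensus TTCNNNGAA, which reads the same on both strands, was in 3 of 35 windows, against 5.68% of all IDR windows. The form with a longer spacer, TTCNNNNGAA, was in 2 of 35, against 6.36%. These matches all lay at summits in the 10 kb windows of Socs36E or Ptp61F, but not all belonged to these genes by position. A long match was at a summit outside Socs36E, 91 bp from the TSS of kel. The Ptp61F match was at a summit in an intron of ru, whose TSS was the nearest, at 5592 bp. The window 3381 bp into Socs36E held both forms, with centres 54 and 21 bp from the summit, and the TSS window of Socs36E held the short form 28 bp from the summit. No window of Stat92E held either. DRE, TATCGATA, was in 1 window against 2.01%, GGTCACACT, the M1BP consensus, in 3 against 0.996%, GAGAG of the GAGA factor in 10 against 21.4%, and CAGGTAG in 1 against 0.982%. A match is a description of letters, not evidence of binding.

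The Stat92E consensus was also counted over whole genes, and Socs36E had the most short matches per kb of the 8. The gene held 20 matches of the short form and 15 of the long form, 1.46 and 1.09 per kb, against 0.314 and 0.326 per kb over all protein-coding genes. A widely used reporter of pathway activity in flies was built from Stat92E sites of this gene. Of the 20 short matches, 2 lay within 100 bp of an IDR summit, and of the 15 long ones 1. The other members had between 0 and 0.67 short matches per kb, with dome the highest. Of the long form dome had 11 matches, 1.47 per kb, which is above Socs36E, and dome had no IDR summit inside the gene. The remaining members had between 0 and 0.679 long matches per kb, with upd3 the highest. No match of either form in upd1, upd2, upd3, dome, hop or Stat92E lay within 100 bp of an IDR summit.

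Among 25 further genes tied to the pathway, 7 had an IDR promoter summit (28.0%, exact interval 12.1 to 49.4%), beside 20.6% of all genes. These genes were also not drawn at random, and a difference from all genes was not tested. Of 13 regulators and interacting genes, 3 had one. Stam, which codes for an adaptor of endosomal sorting, had a signal of 460.9 at -157 bp from the TSS. Ken, a BCL6-like repressor that competes for Stat92E sites, had 183.8 at 38 bp, and Cdk4, a cyclin-dependent kinase gene, had 167.0 at -395 bp. The receptor-like gene et, which lies next to dome, the SOCS genes Socs16D and Socs44A, the PIAS gene Su(var)2-10, BRWD3, E(bx), Ipk2, asrij, CycD and Hrs had none. Of 12 genes reported as targets, 4 had one. The tracheal regulator trh had 1157.9 at -373 bp, and apt, which limits Stat92E activity in border cells, had 952.3 at -157 bp. The apical polarity gene crb had 354.2 at -78 bp, and vir-1, a gene induced by viral infection, had 233.6 at -294 bp. The targets chinmo, zfh1, slbo, TotA, TotM, eve, fj and wg had none within 500 bp of a TSS. The highest promoter signals, those of trh and apt, exceeded those of Stat92E, Socs36E and Ptp61F, and both summits lie in an intron of the gene. Away from promoters the count differed. In the gene or within 10 kb, 8 of the 12 targets and 3 of the 13 regulators had an IDR summit with their own TSS nearest. Of all protein-coding genes 25.8% did, and a difference was not tested. The 8 targets include chinmo, zfh1, slbo and fj.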

How the data were processed

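Whole embryos were assayed by ChIP-seq, with fragments of 200 to 800 bp per the labels. The authors deposited narrowPeak lists on dm6, with a signal and a -log10 q-value per peak and a summit offset. Per the text files beside the samples, peaks were called against a control, on each replicate and on both together, and the IDR list was derived from these. Neither the aligner nor the caller and its settings are named in these sources. The control is not analysed here. The 7029 IDR peaks equal the 7029 strongest of the joint list, and all have a -log10 q of 4.2 as deposited. No read totals are given, so depth is unknown and sets no interval here.

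A summit is the peak start plus the deposited offset. Genes were those of Ensembl release 115, and bases were read from the release 6 assembly as held by RefSeq. All 8 genes had equal starts and ends in both annotations. An intron summit lies in a transcript and in no exon of the gene. Peaks overlapped when they shared at least 1 bp, and replicate values are those of the overlapping peak with the nearest summit. The 1-group design allows no test between conditions, and none was made; shares have exact Clopper-Pearson 95% intervals. The genes named are the 8 members, the gene of the nearest TSS of each IDR summit, pathway genes with a TSS summit, and neighbours in signal order. A few items are not reported here. The members and lists were chosen with earlier results of these data known. The classification of positions and the consensus search were tested on simulated data. Python 3.11.15 with numpy 2.4.6, pandas 2.3.3, scipy 1.17.1 and matplotlib 3.10.9 was used.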

Additional observations from a re-analysis of the deposited data

How the results depend on the processing

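The count of 3 genes with a summit at a TSS was 3 within 1000 bp, by peak overlap and in the joint list, but 1 within 200 bp (Socs36E), 1 in the peaks above the IDR median (Stat92E) and, by the 5'-most TSS only, 1 (Socs36E). Leaving out each replicate in turn gave 2 to 3. The other pathway genes numbered 4 within 200 bp, 4 above the IDR median and 13 in the joint list, in place of 7, and 6 without either replicate. In the joint list 36.3% of all protein-coding genes had a promoter summit. Members with a summit in their window numbered 3 within 5 kb, and 3 when the nearest TSS had to be their own (25.8% of all genes). No share of all genes was taken at the other TSS windows, by peak overlap, above the IDR median, by the 5'-most TSS or within 5 kb. Counts at those settings thus have no background. The 35 summits became 17 above the IDR median, 93 in the joint list, 8 with the member's own TSS as the nearest, and 32 to 35 without a replicate. The share with a peak in both replicates was 80.0% among the strongest peaks of each. Over whole peaks the short Stat92E consensus was in 5 in place of 3. With 50 bp on either side of the summit DRE was in 0, M1BP in 1, GAGAG in 3 and CAGGTAG in 0. In all, 17 of 66 alternatives moved a value past its limit, a factor of 1.5 for counts. The alternatives of the 5'-most TSS, of promoter summits nearest to their own TSS, of introns free of other genes and of merged peaks were chosen after seeing the data. No paired analysis was possible because there is 1 group. Unknown depth and a control not analysed here limit what a missing peak shows.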
